A study of Homo sapiens with 15 samples.

Results

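The replication-dependent histone genes supply the bulk of the histones that package newly copied DNA. They were taken here as every gene on the array whose symbol names a clustered H1, H2A, H2B, H3 or H4 gene (H1-1 to H1-6, and the H2AC, H2BC, H3C and H4C series), which gave 61 genes of the 17687 measured, each with 1 probe set. The 61 comprise 6 H1, 14 H2A, 17 H2B, 9 H3 and 15 H4 genes. In the RefSeq gene list 49 lie on chromosome 6, 11 on chromosome 1 and 1 (H4C16) on chromosome 12. A further 8 genes of these series are in that list without a probe set named here (H2AC7, H2AC16, H2AC17, H2BC15, H3C4, H3C12, H3C14 and H3C15) and are not analysed here.

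The cells were ASC52 (ASC52htert), an adipose-derived human stem cell line made immortal with the telomerase gene TERT, on 15 one-colour arrays, 5 in each of 3 groups. DED cells had been differentiated for 14 days in adipogenic medium, starting 3 days after seeding, and then held for 7 days in medium conditioned by MDA-MB-231 breast carcinoma cells. MA cells had the same differentiation followed by 7 days in control RPMI with 10% FBS, and MSC cells were undifferentiated. All groups are derived from 1 line carrying the TERT transgene. The labels do not say whether arrays of a group stem from separate cultures, and p-values therefore cover only the spread between these arrays, part or all of which may be technical.

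Replication-dependent histone genes are transcribed mainly in S phase, when NPAT, a coactivator switched on by cyclin E and CDK2, drives them in nuclear bodies built on the gene clusters. Their messages end in a stem-loop bound by SLBP, a stem-loop binding protein, instead of a poly(A) tail, and are destroyed when DNA synthesis stops. Some copies can also be read through to a downstream poly(A) signal, which gives ordinary polyadenylated messages in cells that do not divide. H2A and H2B genes often stand head to head and share a promoter.

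The upstream sequences are shown first because H2B had the lowest median log2 difference of any family in each comparison. Many H2B genes also share promoter elements, and whether these are linked to the differences was not tested. RefSeq promoters (GRCh38.p14) were matched for 57 of the 61 genes, with none used for H2AC12, H3C11, H4C1 and H4C3, and the 250 bases before each start were searched on both strands for 3 exact motifs. The octamer ATTTGCAT, the binding element of the factor OCT1, was found upstream of 14 of 17 H2B genes (82.4%) and 8 of 13 H2A genes (61.5%), against 1.7% of 27305 promoters in all, and upstream of 0 of the H1, H3 and H4 promoters searched. The CCAAT box (CCAAT) was present in every H1, H2A, H2B and H3 promoter searched but in 3 of 13 H4 promoters, against 32.9% of all promoters. The TATA box (TATAAA) was present in 39 of 57 (68.4%), against 11.3% of all promoters. A match describes these letters and is not evidence of binding.

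The promoter of H2BC14, the gene with the largest fall, is printed whole because it lies between H2BC14 and its neighbour H2AC14, which starts 245 bases away on the other strand (chr6:27814772-27815021, plus strand). Capitals mark the motifs on either strand (ATTGG is CCAAT and TTTATA is TATAAA read from the opposite strand).
H2BC14: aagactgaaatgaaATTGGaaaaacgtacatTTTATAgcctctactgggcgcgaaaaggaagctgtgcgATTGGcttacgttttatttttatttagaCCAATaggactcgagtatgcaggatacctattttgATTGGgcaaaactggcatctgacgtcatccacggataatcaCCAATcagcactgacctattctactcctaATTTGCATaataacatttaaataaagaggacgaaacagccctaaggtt

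The next windows run from 90 to 21 bases before the start. They set some of the H2B genes that fell strongly beside H2BC5, which did not fall, with H3C2 and the H4C14 and H4C15 copies below them. Capitals again mark CCAAT, ATTTGCAT and TATAAA.
H2BC13 (chr6:27807950-27808019, minus strand): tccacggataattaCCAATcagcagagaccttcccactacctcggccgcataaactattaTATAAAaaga
H2BC8 (chr6:26216709-26216778, minus strand): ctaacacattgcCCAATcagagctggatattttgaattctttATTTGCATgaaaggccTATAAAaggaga
H2BC18 (chr1:149812391-149812460, minus strand): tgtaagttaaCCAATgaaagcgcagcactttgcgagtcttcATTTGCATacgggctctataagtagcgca
H2BC10 (chr6:26272841-26272910, plus strand): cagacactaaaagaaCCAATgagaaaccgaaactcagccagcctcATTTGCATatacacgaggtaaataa
H2BC5 (chr6:26158031-26158100, plus strand): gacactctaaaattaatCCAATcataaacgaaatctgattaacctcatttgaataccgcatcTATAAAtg
H3C2 (chr6:26032120-26032189, minus strand): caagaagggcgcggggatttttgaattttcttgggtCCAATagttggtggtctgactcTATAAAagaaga
H4C14 (chr1:149832567-149832636, plus strand): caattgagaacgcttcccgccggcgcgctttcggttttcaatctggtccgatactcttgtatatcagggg
H4C15 (chr1:149861180-149861249, minus strand): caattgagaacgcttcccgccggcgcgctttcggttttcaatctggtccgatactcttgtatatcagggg
The H2B windows keep a CCAAT box in nearly the same place, while the octamer is absent from the 250 bases upstream of H2BC5, H2BC13 and H2BC26. Among these 3, H2BC13 fell in both DED against MA and MA against MSC, and H2BC5 in neither. H2BC3 and H2BC7, not printed here, also fell in both comparisons. Their octamers lie outside the window, at positions -120 and -111. H4C14 and H4C15 are identical over all 250 upstream bases.

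Values are log2 intensities as deposited, so a difference of 1 is a 2-fold change. Array medians over all genes lay between 6.95 and 6.99. The 612 negative control probe sets of the arrays had 4.80 as their median and 8.31 as their 95th percentile, and a histone gene mean at or under 8.31 is hard to tell from background. By that measure 17 of the 61 genes were over 8.31 in DED cells, 25 in MA cells and 32 in MSC cells, and 29 were at or under it in every group. Where the lower group lies under 8.31 background limits the size of a difference, and only its log2 value is given. Coding sequences within a histone family are much alike, and how far a probe set also reads its relatives was not tested. The lowest correlation between arrays of a group was 0.982 in DED cells, between arrays 1 and 3, against 0.992 in MA cells and 0.992 in MSC cells. Some results on DED cells are therefore also given without these 2 arrays.

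The labelled cell types were checked against markers. Mean levels of 10 adipocyte markers ran from 9.64 to 11.05 over DED arrays, 12.03 to 12.21 over MA arrays and 5.39 to 5.63 over MSC arrays. Mean levels of 8 breast carcinoma epithelium markers ran from 5.85 to 5.97 over DED arrays, 5.74 to 5.86 over MA arrays and 5.78 to 5.97 over MSC arrays, and EPCAM, a surface protein of epithelial cells, averaged 4.35, 4.21 and 4.24 in DED, MA and MSC cells, under the control median. Of those 8 markers 7 were at or under 8.31 in every group, KRT8 being the exception, as were 4 of 5 leukocyte markers (all but CD68) and 4 of 5 endothelial markers (all but TEK). Leukocyte marker means spanned 6.22 to 6.64 in DED, 6.63 to 6.82 in MA and 6.47 to 6.70 in MSC arrays. Endothelial marker means spanned 5.16 to 5.51 in DED, 5.35 to 5.54 in MA and 6.09 to 6.34 in MSC arrays. All 8 mesenchymal stem cell markers were over 8.31 in some group. In DED against MA 2 of them fell and 2 rose, where 13.0% of all genes fell and 12.9% rose. In MA against MSC 4 fell and 1 rose, where 17.6% of all genes fell and 15.4% rose. In DED against MSC 6 fell and 1 rose, where 16.4% of all genes fell and 17.1% rose. The part of these marker levels in the histone differences was not tested.

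In DED against MA, which addressed the response of fat-differentiated cells to carcinoma-conditioned medium, 31 of the 61 histone genes fell, 2 rose and 28 did not pass the test (limma, Benjamini-Hochberg adjusted p under 0.05 over all 17687 genes). Of all genes 13.0% fell and 12.9% rose. Falls of 2-fold or more were seen in 17 of the 61, against 3.48% of all genes. The median log2 difference was -0.43 over the 61 genes and 0.02 over all genes. Without DED arrays 1 and 3 the count of falls was 27 and the median -0.39. In these bulk samples fewer cells in S phase and less histone RNA per cell cannot be told apart.

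By family, the median log2 difference in that comparison was lowest for H2B, at -1.19, with 12 of 17 genes lower. H3 followed with 6 of 9 lower (median -0.70), then H2A with 8 of 14 (median -0.39) and H1 with 3 of 6 (median -0.32). H4 had 2 of 15 lower, 2 higher and a median of -0.22. These H4 counts are near the shares of all genes, 13.0% lower and 12.9% higher. Background limits the contrast of H4 with the other families. Of the H4 genes only H4C3, H4C4, H4C5 and H4C8 had a DED or MA mean over 8.31. Of these genes H4C3 and H4C4 fell, while H4C5 (-0.24) and H4C8 (-0.30) did not pass. The 10 largest differences were those of H2BC14, H3C2, H1-5, H2AC11, H2BC3, H2BC13, H2AC8, H2BC7, H2BC8 and H2BC18, and ran from -6.28 to -1.35. Both group means were over 8.31 for 12 of the 31 genes that fell. By location, 26 of the 49 chromosome 6 genes fell and 0 rose, and 5 of the 11 chromosome 1 genes fell and 2 rose. Those 2 rises were H4C14 and H4C15, whose DED and MA means all lay under 8.31.

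**Figure D1:**
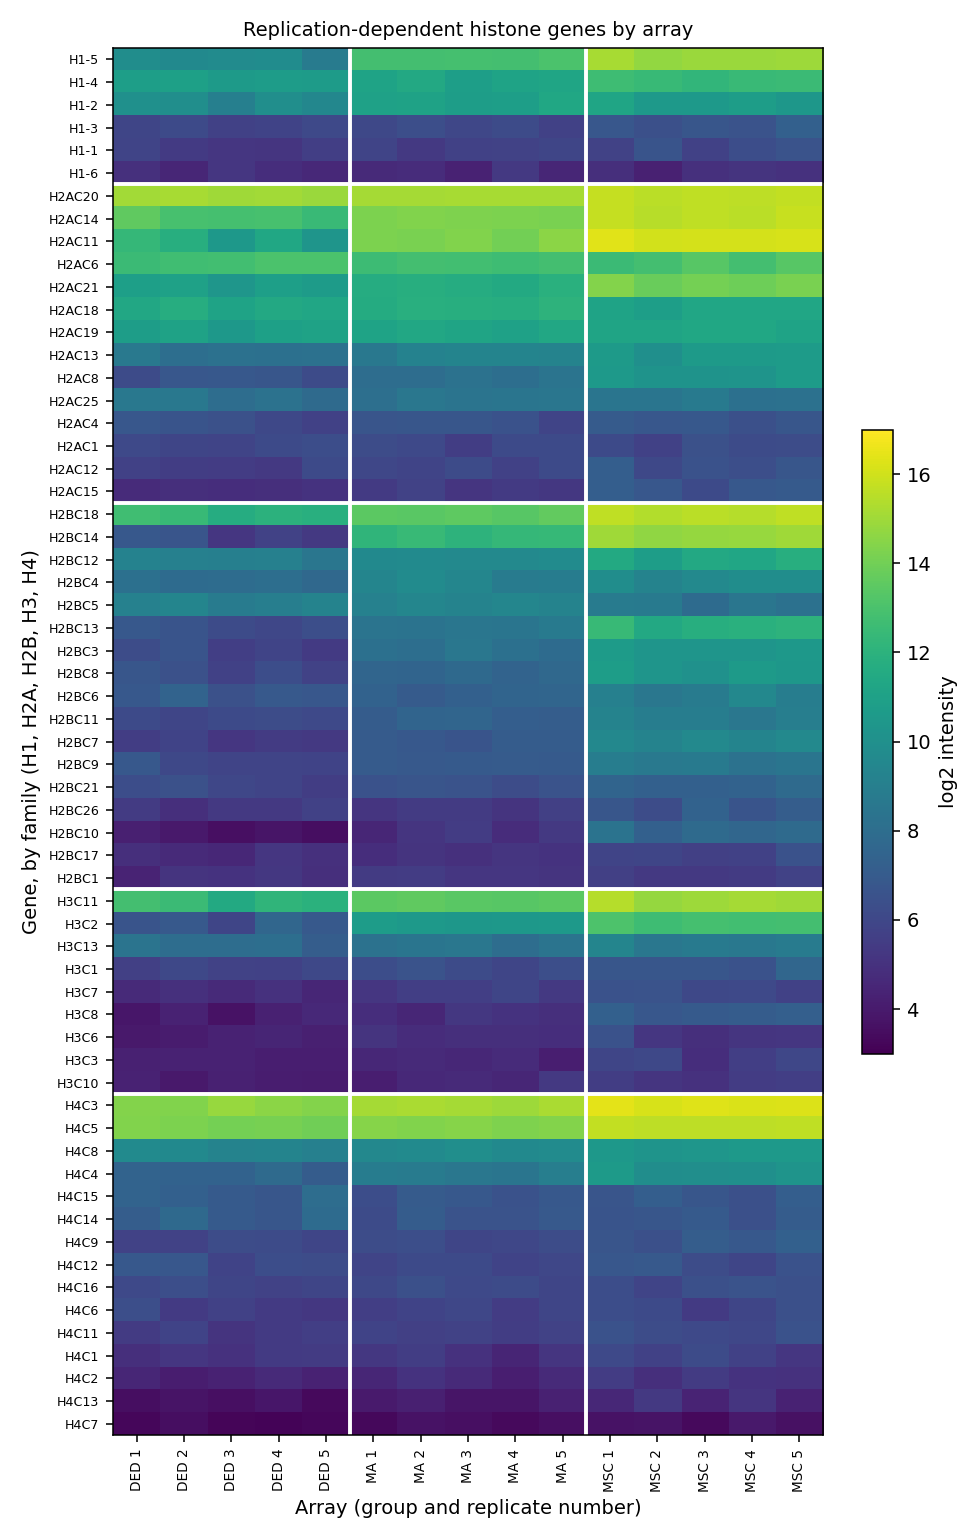
Log2 intensity of the 61 histone genes (rows, grouped by family) on the 15 arrays (columns, DED, MA and MSC), with the colour scale giving the log2 intensity itself. Most rows darken step by step towards DED, with H2BC14 spanning 5.22 to 15.01, while rows such as H2AC6 and H2BC5 do not follow that order.

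In MA against MSC, the differentiation step, 42 of the 61 histone genes fell, 2 rose and 17 did not pass, against 17.6% lower and 15.4% higher among all genes. Medium and culture time differ between these groups too and cannot be told apart from differentiation. Falls of 2-fold or more were seen in 27 of the 61, against 5.17% of all genes, and the median log2 difference was -0.73, against -0.00 over all genes. H2B again led, with 14 of 17 lower and 1 higher (median -1.63). H3 had 7 of 9 lower (median -0.69), H4 10 of 15 (median -0.57), H2A 8 of 14 with 1 higher (median -0.54) and H1 3 of 6 (median -0.59). The 10 largest differences were those of H2BC13, H2BC8, H2BC10, H2BC14, H2BC7, H2AC21, H3C2, H2BC3, H2AC8 and H3C8, from -3.44 to -2.16.

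In DED against MSC, 49 of the 61 histone genes fell, 1 rose and 11 did not pass, against 16.4% lower and 17.1% higher among all genes. Here 37 fell 2-fold or more, against 5.68% of all genes, and the median log2 difference was -1.21, against 0.03 over all genes. All 9 H3 genes and 16 of 17 H2B genes were lower, H2BC5 being the H2B gene that rose, as were 5 of 6 H1, 9 of 14 H2A and 10 of 15 H4 genes. The difference of H2BC14, -8.88, was the lowest of all 17687 genes. DED against MSC shares its arrays with the comparisons above and is no separate evidence of them. In every family and comparison more genes fell than rose, except H4 in DED against MA, where the numbers were equal.

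**Figure D2:**
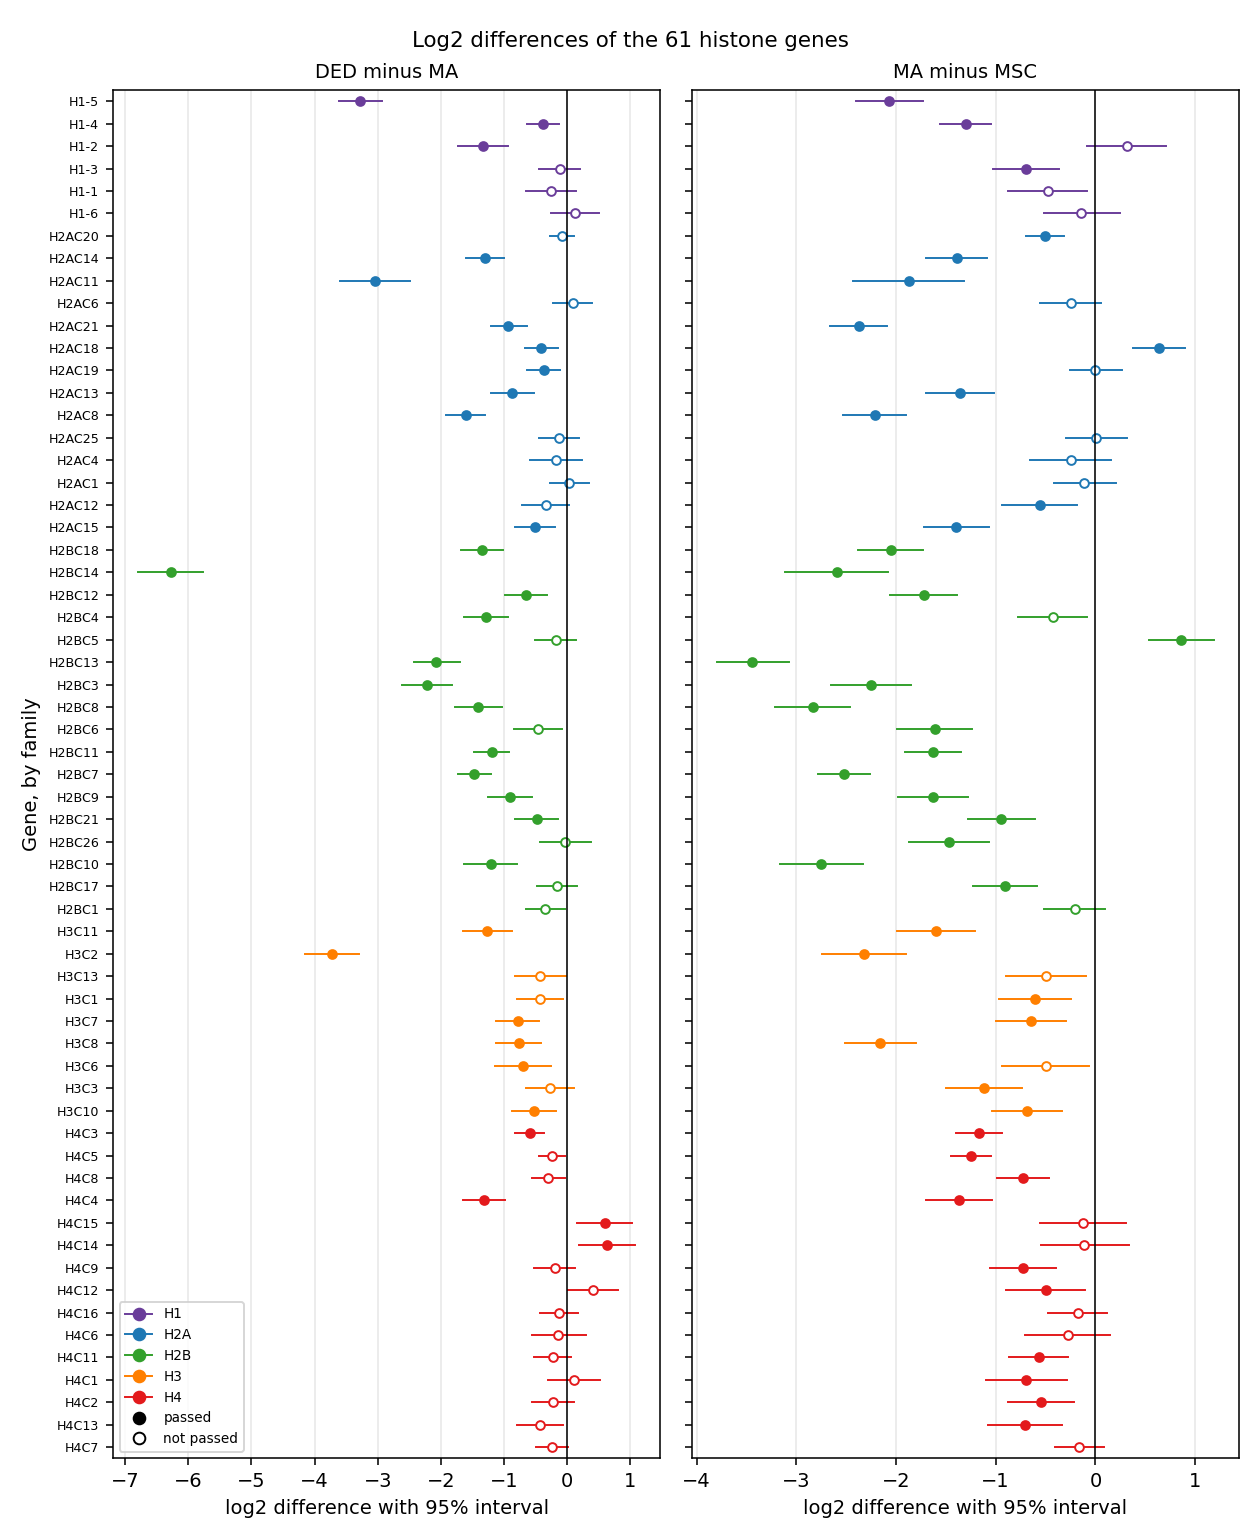
Log2 difference with its 95% interval for each of the 61 genes, DED minus MA and MA minus MSC, coloured by family, with filled points for genes that passed the test. The H2B genes reach furthest below 0 in both panels, to -6.28 (H2BC14) in DED minus MA and -3.44 (H2BC13) in MA minus MSC.

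H2BC14, a core histone H2B gene of the chromosome 6 cluster, had 6.87, 6.71, 5.22, 5.76 and 5.34 in DED cells, 12.15, 12.43, 12.04, 12.32 and 12.38 in MA cells and 15.01, 14.69, 14.79, 14.82 and 14.98 in MSC cells. No array of one group overlapped another, and every DED array lay under the 8.31 background mark although the MA and MSC arrays were far over it. The difference was -6.28 in DED against MA (SE 0.24, limma adjusted p = 5.1e-13) and -2.59 in MA against MSC (SE 0.24, adjusted p = 4.1e-08). Without DED arrays 1 and 3 the DED against MA value was -6.33.

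H2BC13 had 6.84, 6.64, 6.22, 5.98 and 6.39 in DED cells, 8.39, 8.34, 8.47, 8.42 and 8.78 in MA cells and 12.45, 11.47, 11.75, 11.86 and 12.06 in MSC cells. It separated all groups, with -3.44 in MA against MSC (SE 0.17, limma adjusted p = 3.5e-12) and -2.07 in DED against MA (SE 0.17, adjusted p = 1.8e-08). Its DED mean of 6.41 lay under 8.31, so background limits the DED against MA value and these steps are not compared. H2BC18, an H2B gene of the chromosome 1 cluster, had 12.69, 12.46, 11.66, 11.97 and 11.84 in DED cells, 13.47, 13.40, 13.50, 13.39 and 13.61 in MA cells and 15.65, 15.38, 15.53, 15.43 and 15.65 in MSC cells. Its groups were all far over background and did not overlap, with differences of -1.35 in DED against MA (SE 0.16, adjusted p = 1.3e-06) and -2.05 in MA against MSC (SE 0.16, adjusted p = 1.8e-09).

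Of the other H2B genes that the ranking named, H2BC3 had log2 differences of -2.22 in DED against MA and -2.25 in MA against MSC. H2BC8 had -1.41 and -2.83 in the same comparisons, H2BC7 -1.47 and -2.52, and H2BC10 -1.21 and -2.75. The DED means of these genes (5.94 for H2BC3, 6.20 for H2BC8, 5.47 for H2BC7 and 3.83 for H2BC10) all lay under 8.31. So did their MA means (8.17, 7.61, 6.94 and 5.04 in the same order). Background therefore limits their DED against MA values, and the sizes of the steps are not compared.

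Among the H3 genes H3C2 had 6.63, 6.93, 5.93, 7.60 and 6.93 in DED cells, 10.72, 10.50, 10.40, 10.45 and 10.56 in MA cells and 13.11, 12.65, 12.89, 12.74 and 12.84 in MSC cells. The groups did not overlap, and the difference was -3.72 in DED against MA (SE 0.20, limma adjusted p = 4.5e-11) and -2.32 in MA against MSC (SE 0.20, adjusted p = 1.3e-08). Leaving out DED arrays 1 and 3 gave -3.37 in DED against MA. H3C11, whose means were over background everywhere, had 12.82, 12.53, 11.50, 12.18 and 11.93 in DED cells, 13.45, 13.60, 13.43, 13.34 and 13.47 in MA cells and 15.42, 14.81, 14.96, 15.12 and 14.98 in MSC cells. The differences were -1.27 in DED against MA (SE 0.18, adjusted p = 2.4e-05) and -1.60 in MA against MSC (SE 0.18, adjusted p = 6.8e-07). H3C8 had -0.77 in DED against MA and -2.16 in MA against MSC, with means of 4.15, 4.92 and 7.07 in DED, MA and MSC cells that were all at background.

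**Figure D3:**
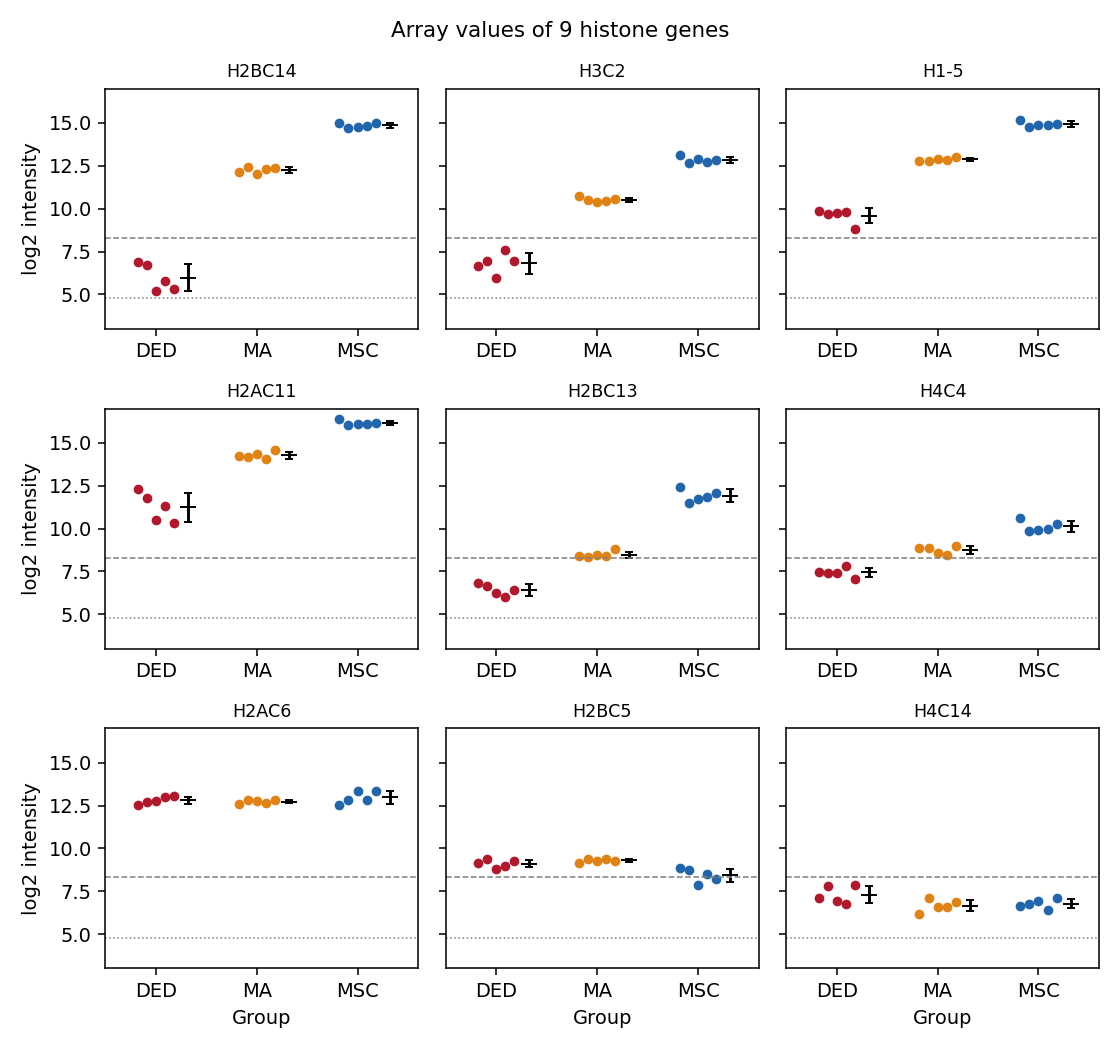
Log2 intensity of 9 histone genes on each array by group (DED, MA, MSC), points being arrays and bars the mean ± SD (n = 5), with lines at 4.80 and 8.31, the median and 95th percentile of the negative control probe sets. H2BC14 and H3C2 are under the upper line on every DED array, whereas the DED and MA points of H2AC6 overlap, between 12.55 and 13.04.

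Linker histones of the H1 family sit where DNA enters and leaves the nucleosome. H1-5 had 9.89, 9.66, 9.76, 9.81 and 8.82 in DED cells, 12.79, 12.80, 12.88, 12.83 and 13.04 in MA cells and 15.19, 14.75, 14.90, 14.90 and 14.93 in MSC cells. The groups lay far apart and over background, and H1-5 had differences of -3.28 in DED against MA (SE 0.16, limma adjusted p = 1.2e-11) and -2.07 in MA against MSC (SE 0.16, adjusted p = 2.3e-09). H1-4 had -0.38 in DED against MA (SE 0.12, adjusted p = 0.025) and -1.30 in MA against MSC (SE 0.12, adjusted p = 3.6e-08). H1-2 had 10.04, 9.91, 9.03, 9.94 and 9.47 in DED cells, 11.01, 11.06, 10.80, 10.86 and 11.35 in MA cells and 11.25, 10.50, 10.53, 10.81 and 10.41 in MSC cells. It was lower on every DED array than on any MA or MSC array, with -1.34 in DED against MA (SE 0.19, adjusted p = 1.6e-05), while MA and MSC cells overlapped (0.32, SE 0.19, adjusted p = 0.23). H1-6, the testis form of the family, averaged 4.83, 4.71 and 4.85 in DED, MA and MSC cells, near the control median, and did not pass in any comparison.

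In the H2A family H2AC11 had 12.30, 11.78, 10.48, 11.32 and 10.31 in DED cells, 14.26, 14.19, 14.35, 14.04 and 14.57 in MA cells and 16.38, 16.04, 16.12, 16.08 and 16.16 in MSC cells. Its groups did not overlap, with -3.04 in DED against MA (SE 0.27, limma adjusted p = 3.2e-08) and -1.87 in MA against MSC (SE 0.27, adjusted p = 1.1e-05). Its SD over DED arrays, 0.85, was the highest of the 61 genes in that group. H2AC21 had 10.89, 11.03, 10.35, 10.90 and 10.70 in DED cells, 11.66, 11.80, 11.66, 11.51 and 11.88 in MA cells and 14.39, 13.81, 14.08, 13.92 and 14.17 in MSC cells. Here most of the difference lay between MA and MSC cells, at -2.37 (SE 0.14, adjusted p = 2.6e-11), against -0.93 between DED and MA cells (SE 0.14, adjusted p = 2.7e-05). H2AC8 had -1.61 in DED against MA and -2.21 in MA against MSC.

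Other H2A genes had smaller differences. H2AC20 had 15.06, 15.16, 15.02, 15.08 and 14.92 in DED cells, 15.10, 15.11, 15.17, 15.16 and 15.16 in MA cells and 15.76, 15.54, 15.64, 15.60 and 15.73 in MSC cells. DED and MA cells overlapped (-0.09, SE 0.09, limma adjusted p = 0.53), and the fall in MA against MSC was 0.51 (SE 0.09, adjusted p = 0.00014). H2AC18, an H2A gene of the chromosome 1 cluster, had 11.37, 11.71, 11.12, 11.45 and 11.31 in DED cells, 11.62, 11.84, 11.76, 11.74 and 12.06 in MA cells and 11.13, 10.86, 11.30, 11.28 and 11.26 in MSC cells. It rose in MA against MSC by 0.64 (SE 0.13, adjusted p = 0.00041) with no overlap. In DED against MA it fell by 0.41 (SE 0.13, adjusted p = 0.019), a call that was lost without MA array 5 (adjusted p = 0.059), without DED array 3 (0.054) and without DED arrays 1 and 3 together (0.12). H2AC19, a nearby copy encoding the same protein, had -0.37 in DED against MA (SE 0.12, adjusted p = 0.032) and 0.00 in MA against MSC (adjusted p = 0.99), and both copies are uncertain because their probe sets may read each other's transcripts.

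The only genes of the set that rose in DED against MA were H4 genes at background level. H4C3 had 14.41, 14.37, 14.86, 14.57 and 14.39 in DED cells, 15.10, 15.22, 15.10, 14.93 and 15.21 in MA cells and 16.44, 16.17, 16.30, 16.23 and 16.27 in MSC cells, with differences of -0.59 in DED against MA (SE 0.11, limma adjusted p = 0.0004) and -1.17 in MA against MSC (SE 0.11, adjusted p = 4.6e-08). H4C4 had 7.44, 7.41, 7.42, 7.84 and 7.08 in DED cells, 8.88, 8.85, 8.57, 8.46 and 8.99 in MA cells and 10.62, 9.85, 9.90, 9.98 and 10.25 in MSC cells, with -1.31 (SE 0.16, adjusted p = 2.7e-06) and -1.37 in the same comparisons (SE 0.16, adjusted p = 8.2e-07). These were the 2 H4 genes that fell in DED against MA, each without overlap.

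H4C14 had 7.12, 7.81, 6.94, 6.76 and 7.87 in DED cells, 6.19, 7.09, 6.59, 6.56 and 6.90 in MA cells and 6.64, 6.74, 6.96, 6.42 and 7.10 in MSC cells. H4C15 had 7.47, 7.32, 6.97, 6.77 and 8.02 in DED cells, 6.31, 7.02, 6.85, 6.52 and 6.87 in MA cells and 6.67, 7.18, 6.73, 6.40 and 7.21 in MSC cells. The groups overlapped for both genes and all arrays lay under 8.31. Their rises in DED against MA were 0.63 (SE 0.21, limma adjusted p = 0.031) and 0.60 (SE 0.21, adjusted p = 0.041). How far the probe sets of these copies read the same transcripts was not tested, so the rises may not be separate. The call of H4C14 was lost without MA array 1, 3 or 4 or DED array 2 or 5 (adjusted p between 0.061 and 0.10), and the count of rises was then 0. It was also lost with only the groups compared in the fit (limma adjusted p = 0.052). Without DED arrays 1 and 3 together H4C14 kept its call, at 0.81 (limma adjusted p = 0.018). H4C11 and H4C12, whose upstream bases are 98.0% identical, did not pass in DED against MA (-0.23 and 0.41).

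Some histone genes are known to give polyadenylated messages as well, and 6 of them were followed as a group: H1-2, H2AC6, H2BC4, H2BC5, H2BC12 and H2BC21. H2AC6 had 12.55, 12.70, 12.74, 13.02 and 13.04 in DED cells, 12.61, 12.81, 12.75, 12.64 and 12.81 in MA cells and 12.55, 12.81, 13.35, 12.80 and 13.35 in MSC cells. Its groups overlapped throughout, with 0.09 in DED against MA (95% interval -0.23 to 0.40) and -0.25 in MA against MSC (-0.56 to 0.06). H2BC5 had 9.17, 9.37, 8.82, 8.97 and 9.24 in DED cells, 9.14, 9.41, 9.28, 9.40 and 9.26 in MA cells and 8.84, 8.73, 7.88, 8.50 and 8.22 in MSC cells. It rose in MA against MSC by 0.86 (SE 0.16, limma adjusted p = 0.00018) without overlap, and its DED and MA cells overlapped (-0.18, 95% interval -0.51 to 0.14).

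The other members of that group were lower in DED against MA. H2BC4 had 8.16, 7.89, 7.97, 8.07 and 7.72 in DED cells, 9.35, 9.75, 9.40, 8.81 and 8.90 in MA cells and 9.86, 9.25, 9.57, 9.85 and 9.84 in MSC cells. It fell by 1.28 in DED against MA (SE 0.17, limma adjusted p = 5.8e-06) without overlap, while the difference in MA against MSC was -0.43 (SE 0.17, adjusted p = 0.053; 0.018 without MSC array 2 and 0.010 without MA array 2). H2BC12 had -0.65 in DED against MA (SE 0.16, adjusted p = 0.0042) and -1.72 in MA against MSC (SE 0.16, adjusted p = 3.3e-08). H2BC21 had -0.95 in MA against MSC (SE 0.16, adjusted p = 8.3e-05) and -0.48 in DED against MA (SE 0.16, adjusted p = 0.030). The DED against MA call was lost without MA array 2, 3 or 5 or DED array 3, 4 or 5 (adjusted p between 0.053 and 0.10). Of the 6 genes 4 fell and 0 rose in DED against MA, where 13.0% of all genes fell, and 2 fell and 1 (H2BC5) rose in MA against MSC, where 17.6% of all genes fell and 15.4% rose. Array probe sets do not separate stem-loop from polyadenylated messages here, and which form was measured was not tested.

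Divergent pairs put genes of 2 families on 1 promoter region. In 8 such pairs both genes were measured, with starts 215 to 248 bases apart. In each pair the H2B minus H2A log2 value was compared between groups with an exact two-sided permutation test over arrays, 16 tests adjusted by Benjamini-Hochberg, where the smallest p that 5 arrays against 5 can give is 0.0079 (0.014 adjusted here). In H2AC14/H2BC14 the H2A gene had -1.30 and the H2B gene -6.28 in DED against MA. The gap between these changes, -4.98, passed the test (exact adjusted p = 0.014). H2AC14 itself had 13.57, 12.90, 12.87, 12.93 and 12.51 in DED cells, 14.24, 14.35, 14.29, 14.26 and 14.16 in MA cells and 15.75, 15.51, 15.65, 15.56 and 15.80 in MSC cells, so it stayed far over background on the DED arrays where its partner was at background.

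Other pairs were also unequal. In DED against MA the gap (H2B change minus H2A change) was -1.20 in H2AC13/H2BC13 and -1.37 in H2AC6/H2BC4, where H2BC4 had -1.28 and H2AC6 0.09. The gap ran the other way in H2AC11/H2BC11, where H2AC11 had -3.04 and H2BC11 -1.19, a gap of 1.85. These 3 passed (exact adjusted p = 0.014 each), and the remaining 4 pairs did not (gaps of 0.20, -0.39, -0.38 and 0.10 for H2AC8/H2BC8, H2AC20/H2BC21, H2AC1/H2BC1 and H2AC25/H2BC26). In MA against MSC 5 pairs passed, all with the larger fall in the H2B gene (-2.07 for H2AC13/H2BC13, -1.48 for H2AC25/H2BC26, -1.20 for H2AC14/H2BC14, -0.62 for H2AC8/H2BC8 and -0.43 for H2AC20/H2BC21, exact adjusted p = 0.014 each). Background limits what can be read from the size of many gaps. H2AC1, H2AC8, H2BC1, H2BC8, H2BC11, H2BC21 and H2BC26 had both DED and MA means under 8.31, and H2AC13, H2AC25, H2BC4, H2BC13 and H2BC14 had their DED mean under it. In MSC cells H2AC1, H2BC1, H2BC21 and H2BC26 were under 8.31 too (means of 6.15, 5.50, 7.47 and 6.82). The MA against MSC gaps of H2AC20/H2BC21 and H2AC25/H2BC26 thus rest on an H2B gene at background in every group.

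**Figure D4:**
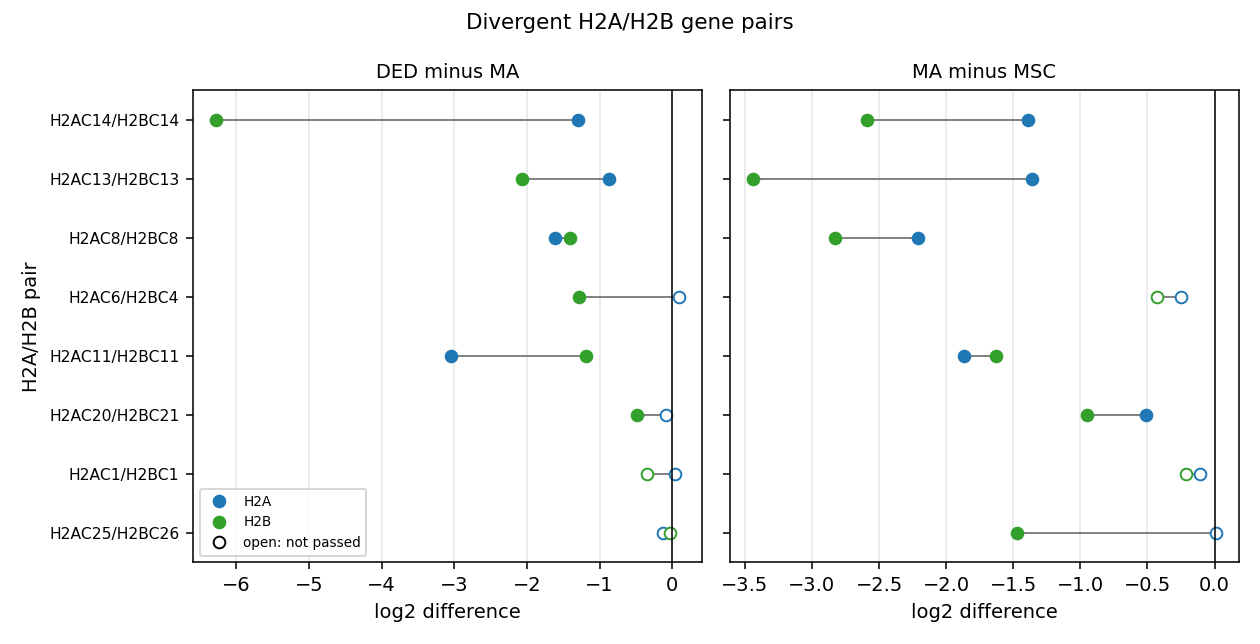
Log2 differences of the H2A and the H2B gene of 8 divergent pairs, DED minus MA and MA minus MSC. The 2 genes of H2AC14/H2BC14 lie furthest apart in DED minus MA, at -1.30 and -6.28, and H2AC11/H2BC11 runs the other way, at -3.04 and -1.19.

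Level and size of change were not tied in a simple way. Genes whose DED and MA means were far over 8.31 included strong falls (H1-5, H2AC11) and differences near 0 (H2AC20 and H2AC6). Of the genes that fell, 17 of 42 in MA against MSC and 14 of 49 in DED against MSC had both means over 8.31.

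**Figure D5:**
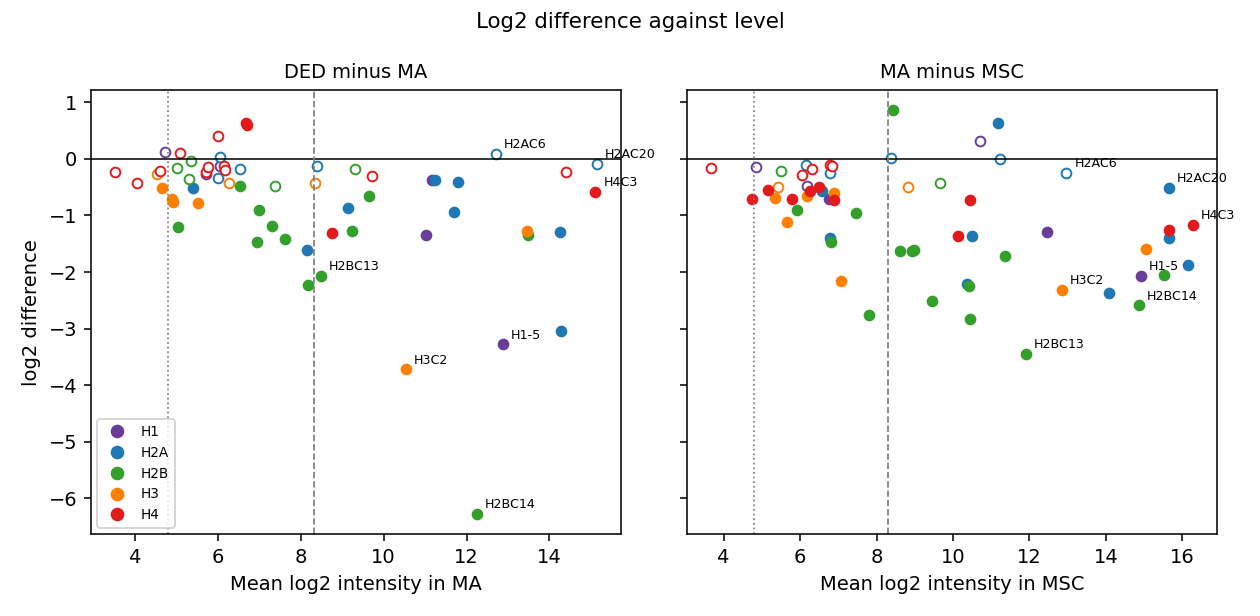
Log2 difference of each histone gene against its mean level in the group it is set against (MA for DED minus MA, MSC for MA minus MSC), with lines at 4.80 and 8.31. H2BC14 stands apart at -6.28 in DED minus MA, while H2AC6 and H2AC20, also far right of 8.31, lie near 0 there.

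The histone genes varied among the DED arrays. The median SD over the 61 genes was 0.28 in DED cells, 0.19 in MA cells and 0.27 in MSC cells. The median level of the 61 genes was 6.76, 6.66, 6.0, 6.18 and 6.13 on the DED arrays, 7.04, 7.04, 6.98, 7.07 and 7.07 on the MA arrays and 8.84, 8.54, 8.69, 8.28 and 8.22 on the MSC arrays. DED arrays 1 and 2 were thus the highest of their group. MKI67, a marker of dividing cells, had 7.29, 7.25, 5.82, 6.73 and 6.24 on the 5 DED arrays. The DED medians and DED MKI67 values all lay under 8.31, so background limits what their order shows. MKI67 had 9.05, 8.98, 9.77, 9.34 and 9.44 on the MA arrays and 11.56, 11.49, 11.70, 11.56 and 11.75 on the MSC arrays. With 5 arrays no correlation was computed, and the part of proliferation in the histone differences was not tested.

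Genes of S phase were mostly lower as well. Of 28 S phase genes measured 23 fell and 0 rose in DED against MA (median -1.05), where 13.0% of all genes fell and 12.9% rose. In MA against MSC 26 fell and 0 rose (median -0.89), where 17.6% of all genes fell and 15.4% rose. In DED against MSC 27 fell and 0 rose (median -2.04), where 16.4% of all genes fell and 17.1% rose. CCNA2, the S phase cyclin A2, had -2.63 in DED against MA and -2.19 in MA against MSC, and PCNA, the sliding clamp of DNA polymerase, -0.91 and -0.75, all past the test. CDKN1A, the inhibitor p21 of CDK2, rose by 0.84 in DED against MA (SE 0.20, limma adjusted p = 0.0033) and by 1.15 in MA against MSC (SE 0.20, adjusted p = 0.00011). CDK2 had -1.38 and -1.07 in the same comparisons. The CDK2 means of 6.68 in DED and 8.06 in MA cells lay under 8.31, as did the CCNA2 mean of 7.30 in DED cells. Background limits the size of the differences drawn from these means.

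The genes that transcribe and process histone messages moved in both directions. Of 20 measured, 5 fell and 6 rose in DED against MA (median 0.09), 9 fell and 1 rose in MA against MSC (median -0.26), and 6 fell and 3 rose in DED against MSC (median -0.23). The shares of all genes were 13.0% lower and 12.9% higher in DED against MA, 17.6% and 15.4% in MA against MSC, and 16.4% and 17.1% in DED against MSC. NPAT did not pass in any comparison, with 0.02 in DED against MA and -0.28 in MA against MSC. Its means of 7.20, 7.17 and 7.45 in DED, MA and MSC cells all lay under 8.31. At that level background could hide a change. SLBP fell by 0.46 in DED against MA (SE 0.12, limma adjusted p = 0.008) and had -0.17 in MA against MSC (adjusted p = 0.34). HINFP, a zinc finger activator of H4 genes, rose by 0.69 in DED against MA (SE 0.12, adjusted p = 0.0002) and fell by 0.56 in MA against MSC (SE 0.12, adjusted p = 0.0011). CPSF2, a subunit of the cleavage complex, rose by 0.72 and fell by 0.83 in the same comparisons, and ERI1, an exonuclease that trims histone message ends, had -0.44 and -0.69, both past the test. The MA means of HINFP (7.91) and CPSF2 (8.18) lay under 8.31, so background limits the size of their differences.

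Histone variants made outside S phase replace the replication-dependent kinds in cells that do not divide. Of 10 measured, 3 fell and 2 rose in DED against MA (median -0.11), 8 fell and 1 rose in MA against MSC (median -0.54), and 5 fell and 1 rose in DED against MSC (median -0.30). Of all genes 13.0% fell and 12.9% rose in DED against MA, and the small counts of that comparison are not read as a shift. The falls of variants were above the shares of all genes in MA against MSC (17.6%) and DED against MSC (16.4%), in a list of only 10. H2AJ, an H2A variant, rose by 2.23 in MA against MSC (SE 0.14, limma adjusted p = 1.4e-10) and fell by 0.76 in DED against MA (SE 0.14, adjusted p = 0.00041). H3-3B, which encodes H3.3, rose by 0.70 in DED against MA and fell by 0.53 in MA against MSC, and H2AX, the variant marked at DNA breaks, had -0.61 and -1.88, both past the test. Of 22 histone chaperones 5 fell and 2 rose in DED against MA (median -0.11), 11 fell and 2 rose in MA against MSC (median -0.37), and 12 fell and 1 rose in DED against MSC (median -0.40). Of all genes 13.0% fell and 12.9% rose in DED against MA, near the chaperones' counts, while 17.6% fell in MA against MSC and 16.4% in DED against MSC. CHAF1B, a subunit of the assembly factor that works behind the replication fork, had -2.04 in DED against MA and -1.29 in MA against MSC, and HJURP, which deposits the centromeric H3 variant, had -2.52 and -2.31. The CHAF1B means of 6.16 in DED and 8.20 in MA cells lay under 8.31, as did the HJURP mean of 8.03 in DED cells. Background limits the size of the differences drawn from these means.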

How the data were processed

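Gene expression was measured on 15 arrays, 5 per group, grouped by the sample titles. The authors deposited log2 intensities for 24351 probe sets, made with Transcriptome Analysis Console by RMA, per the submitters' processing notes. Software versions and build count as not given in the sources used here. RMA normalizes between arrays, which hides any shift common to all genes.

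Of the probe sets 17709 carried 1 gene symbol. For 20 genes with several, the probe set with the highest mean was kept, which left 17687 genes with no filter on dim ones. The test was that of limma 3.58.1 under R 4.3.3, with all 15 arrays in 1 fit (lmFit, then eBayes) and no covariates, two-sided, adjusted by Benjamini-Hochberg over all genes at 0.05. The SE is that of the moderated difference. The number of arrays limits the precision. The fit was tested on simulated data.

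Histone genes were named by rule. Per comparison the rule took the 10 largest differences past the test and the largest rise and fall per family. In all comparisons it took the brightest gene of each family and 6 genes with known polyadenylated messages. For other lists it took up to 2 rises and 2 falls each. Other genes with values, among them NPAT, SLBP, HINFP, ERI1, PCNA, H1-4, H1-6, H2AC14, H2AC19, H2BC11, H2BC26, H4C11, H4C12 and H4C15, were chosen after their values were seen. The members, lists and tests were chosen with earlier results of these data known. Alternatives were quantile normalization, a shift to 1 median, removal of dim genes (below the 25th percentile), probe sets averaged or tested singly, array weights, a robust fit with intensity trend, only the groups compared, a replicate block, and each array left out. DED arrays 1 and 3 left out together, and the pair tests with their omissions, were added after the data were seen. Figures were drawn with matplotlib 3.10.9.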

Additional observations from a re-analysis of the deposited data

Results flagged for a closer look

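In 2 of 78 groups of 5 arrays tested, 1 array lay further from the others than Dixon's 95% critical value of 0.71 allows, and chance flags about 1 group in 20. H1-5 was 8.82 on DED array 5, against 9.66 to 9.89 on the other DED arrays. H2BC12 was 8.49 on DED array 5, against 9.05 to 9.21 on the other DED arrays.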

How the results depend on the processing

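No value that passed its test changed sign in the settings run. Of values that did not pass, 3 changed sign, H4C14 in MA against MSC (0.01 without MA array 1, -0.11 with all arrays) and the pair gaps of H2AC8/H2BC8 and H2AC25/H2BC26 in DED against MA. The histone genes that fell numbered 31 in DED against MA (26 to 33 with 1 array left out, 27 to 32 otherwise), 42 in MA against MSC (40 to 44 and 40 to 44) and 49 in DED against MSC (47 to 50 and 41 to 50). With dim genes left out, the median in MA against MSC was -1.06 over the 52 histone genes remaining, against -0.73 with dim genes kept. These medians cover different sets of histone genes. The 2 rises in DED against MA were 1 with array weights, 1 with only the groups compared and 1 without DED arrays 1 and 3 together, and 0 to 3 with 1 array left out. They were 0 without MA array 1, 3 or 4 or DED array 2 or 5, and 1 without DED array 1. The 1 rise in DED against MSC was 3 with the replicate block, 2 without DED arrays 1 and 3 together and 1 to 3 with 1 array left out (2 without MSC array 5 or DED array 3, 3 without DED array 4). The cause was not tested.

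Replicate numbers are shared between groups, but the 15 same-number correlations of deviations ran from -0.108 to 0.087, and 1 sample correlated best with its own number. No pairing by number was thus seen. Such weak correlations cannot exclude that equal numbers were handled together, which the labels do not say. With the replicate block 32 genes fell in DED against MA, 43 in MA against MSC and 50 in DED against MSC. Of the 75 named histone results 5 changed their call in some setting: H4C14, H2BC21 and H2AC18 in DED against MA, H2BC4 in MA against MSC and H4C14 in DED against MSC (main adjusted p = 0.062, limma, 0.013 with the replicate block). Of 160 pair values with 1 array left out 156 kept direction and call. Without MA array 4 H2AC20/H2BC21 passed in DED against MA (-0.47), as did H2AC8/H2BC8 without DED array 3 (0.39). H2AC8/H2BC8 was -0.03 without DED array 1 (0.20 with all arrays), and H2AC25/H2BC26 was -0.09 without DED array 5 (0.10 with all arrays). Low signal over background limits the size of most differences.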
